A study of Mus musculus with 6 samples.

Results

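Endocannabinoids are lipid messengers that act on the oviduct during embryo transport. The 7 genes examined here encode their receptors, Cnr1 and Cnr2, the enzymes that make them, Napepld, Dagla and Daglb, and the enzymes that break them down, Faah and Mgll. The question was how open the chromatin at these genes was in oviductal smooth muscle cells, and whether it differed in mice with a conditional deletion of Pbrm1, which encodes a protein of the nucleosome-remodeling SWI/SNF complex. A locus was defined as the gene body plus 20 kb on either side, and every reproducible open region that overlapped it was taken. This gave 40 regions, of 66679 regions in the whole data set. Of the 40, 14 lay at Dagla, 8 at Mgll, 5 at Cnr2, 5 at Faah, 4 at Napepld, 3 at Daglb and 1 at Cnr1.

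Chromatin accessibility was measured by ATAC-seq, in which the transposase Tn5 inserts adapters where DNA is exposed. The 6 libraries came from primary smooth muscle cells of oviducts of mice aged 8 to 12 weeks, on day 2 of pregnancy after mating. By genotype label, 3 were WT (the controls) and 3 Pbrm1 cKO. In the study's methods for this colony the deletion joins Pbrm1 fl/fl with the PR-IRES-cre allele, so Cre is active wherever the progesterone receptor gene is expressed, from the neonate on and not in muscle alone, and littermate controls carry Pbrm1 fl/fl. In the study's methods for uterine stromal cells, the cells were dissociated, filtered and plated for some hours, with no sorting by a marker named. The same handling was taken to hold for these oviductal cells. The study calls the replicates of these cells biological, but neither it nor the labels say whether the libraries of a genotype came from separate mice or cultures, so the p-values below measure the spread between these libraries, which may be technical. The lists do not show the deletion itself. The Pbrm1 promoter ranked 10525.5 to 19394.5 in WT and 12332 to 22222 in Pbrm1 cKO libraries, and its difference was 0.07 (SE 0.37, limma adjusted p = 0.955).

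In each library, every region was ranked by the best −log10 p of the peaks called over it, so that rank 1 was the strongest of 66679, tied regions shared their mean rank, and a region without a peak took the last rank. The −log10 p belongs to the summit of a peak and is not scaled by the length of a region or gene. A wider region can overlap more peaks, however, and the best of them was taken. The rank score, log2(66679/rank), rises by 1 when the rank number is divided by 2. A difference is given as Pbrm1 cKO minus WT, so a positive value means that the region stood higher in the ranking of Pbrm1 cKO cells. Ranks cannot show a shift that moves every region alike. WT library 3 stood apart, with a median of 8 sequencing tags per listed summit against 13 to 15 in the other libraries, and a median fold enrichment of 3.61 against 4.43 to 4.87. As a check of the cell type, all 7 smooth muscle markers had an open region at their promoter, with Smtn ranked best (mean rank 10105), Acta2 at 19388, Tagln at 19700, Myh11 at 23524, Des at 38093, Cnn1 at 46897 and Lmod1 at 48442. The same held for 1 of 7 epithelial markers (Foxj1, mean rank 4389, ahead of all 7 smooth muscle markers), 2 of 6 immune markers (Cd68 at 22592 and Csf1r at 39080), 4 of 4 endothelial (from Kdr at 21012 to Cdh5 at 47707), 3 of 4 fibroblast (Col1a1 best, at 23334) and 2 of 4 glial or neuronal markers (Snap25 best, at 19889), and 0 of all these promoters passed the threshold between genotypes (limma, smallest adjusted p = 0.411, at Cnn1), with 0 at an unadjusted p under 0.05 and 0 with normal scores. Epcam, Krt8, Krt18, Cdh1, Pax8 and Ovgp1 of the epithelial list and Ptprc, Cd3e, Cd79a and Lyz2 of the immune list had no such region.

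The main endocannabinoids are anandamide and 2-arachidonoylglycerol. NAPE-PLD, the product of Napepld, releases anandamide from a membrane phospholipid, and FAAH hydrolyzes it. The diacylglycerol lipases DAGLα and DAGLβ make 2-arachidonoylglycerol, and monoacylglycerol lipase, the product of Mgll, hydrolyzes it. Both lipids act on CB1 (Cnr1) and CB2 (Cnr2), receptors coupled to inhibitory G proteins, CB1 best known from neurons and CB2 from immune cells. In mice, loss of CB1 or an excess of anandamide is known to hold embryos back in the oviduct.

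Promoters were matched by symbol to RefSeq for 6 of the 7 genes, all but Dagla, and 4 of them are printed here as RefSeq sequences on GRCm38.p6, from 250 bases before to 50 bases after an annotated start. They were chosen as the most open (Napepld) and the only one near the middle of coding genes with an open promoter (Daglb). Also shown are that of the receptor gene (Cnr1) and the one with the lowest p between genotypes (Mgll). Where a gene has several RefSeq starts, the one around the summit of the open region is shown. Each runs in the direction of its gene, with matches to the searched motifs in capitals on either strand.
Napepld, chr5:21701573-21701872, minus strand: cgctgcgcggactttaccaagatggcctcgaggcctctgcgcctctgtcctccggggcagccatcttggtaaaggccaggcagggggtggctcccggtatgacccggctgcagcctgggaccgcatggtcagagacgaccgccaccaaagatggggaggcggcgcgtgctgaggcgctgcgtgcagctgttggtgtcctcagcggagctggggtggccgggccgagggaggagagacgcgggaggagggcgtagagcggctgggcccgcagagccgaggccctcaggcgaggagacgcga
Daglb, chr5:143464243-143464542, plus strand: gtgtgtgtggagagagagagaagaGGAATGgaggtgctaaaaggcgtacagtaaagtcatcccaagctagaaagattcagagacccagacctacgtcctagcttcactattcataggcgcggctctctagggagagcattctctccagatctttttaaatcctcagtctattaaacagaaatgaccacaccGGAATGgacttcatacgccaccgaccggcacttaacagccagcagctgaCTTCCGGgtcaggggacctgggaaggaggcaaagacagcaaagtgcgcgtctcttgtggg
Cnr1, chr4:33924394-33924693, plus strand: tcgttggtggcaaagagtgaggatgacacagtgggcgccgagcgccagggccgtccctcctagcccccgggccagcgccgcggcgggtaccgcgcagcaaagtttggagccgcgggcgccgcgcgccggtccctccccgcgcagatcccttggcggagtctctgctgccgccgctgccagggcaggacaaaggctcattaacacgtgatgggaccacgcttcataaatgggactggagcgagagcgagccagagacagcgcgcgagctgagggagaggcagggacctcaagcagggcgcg
Mgll, chr6:88724454-88724753, plus strand: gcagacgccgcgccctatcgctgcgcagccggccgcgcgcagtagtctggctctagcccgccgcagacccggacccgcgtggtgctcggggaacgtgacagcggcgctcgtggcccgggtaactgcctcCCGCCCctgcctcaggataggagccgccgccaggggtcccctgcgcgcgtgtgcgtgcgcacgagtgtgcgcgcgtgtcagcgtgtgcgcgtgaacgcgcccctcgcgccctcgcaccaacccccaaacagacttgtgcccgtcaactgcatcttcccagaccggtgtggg

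The next 3 sequences are whole open regions on the plus strand of GRCm38, each listed as reproducible in 1 genotype only. They are shown because they lie in introns of Mgll and Cnr2 and because their ranks did not overlap between genotypes. The first was listed in WT only, and the others in Pbrm1 cKO only.
Mgll intron, WT list, chr6:88775328-88775623: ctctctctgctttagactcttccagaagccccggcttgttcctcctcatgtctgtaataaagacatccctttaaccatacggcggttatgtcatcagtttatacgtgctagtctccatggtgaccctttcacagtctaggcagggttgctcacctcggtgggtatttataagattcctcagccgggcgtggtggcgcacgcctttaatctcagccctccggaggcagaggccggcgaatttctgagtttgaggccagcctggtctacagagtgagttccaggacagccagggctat
Mgll intron, Pbrm1 cKO list, chr6:88772061-88772334: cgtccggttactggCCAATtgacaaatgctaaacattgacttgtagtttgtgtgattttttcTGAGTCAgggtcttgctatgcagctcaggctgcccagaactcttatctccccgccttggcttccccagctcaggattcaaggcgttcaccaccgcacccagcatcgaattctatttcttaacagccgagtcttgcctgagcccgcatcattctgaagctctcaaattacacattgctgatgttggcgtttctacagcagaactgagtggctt
Cnr2 intron, Pbrm1 cKO list, chr4:135898439-135898703: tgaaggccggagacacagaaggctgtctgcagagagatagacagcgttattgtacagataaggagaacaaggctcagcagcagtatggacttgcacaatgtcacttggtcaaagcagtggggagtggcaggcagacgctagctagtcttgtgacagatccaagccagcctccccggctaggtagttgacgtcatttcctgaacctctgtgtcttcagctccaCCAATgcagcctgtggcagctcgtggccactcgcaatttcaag

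The motifs searched on both strands were AP-1 as TGANTCA, the GC box as GGGCGG, the box named for its letters CCAAT, ETS as CCGGAAG, TEAD as GGAATG, and the CArG box of serum response factor. The ETS and TEAD motifs share the letters GGAA, and the CArG box reads the same on both strands. A match is a run of letters and no measure of binding. The shown Napepld and Cnr1 promoters held no match in their 300 bases, Mgll held 1 GC box, and Daglb held 1 ETS and 2 TEAD matches. Among 32817 RefSeq promoters of the same length, a GC box was in 35.6%, an ETS motif in 8.86% and a TEAD motif in 14.7%. The Mgll intron listed in WT held no match, and 46.6% of its bases are soft-masked as repeats in the reference, the highest share of the 40 regions, whose median was 3.44% (all regions, 7.26%). The Mgll intron listed in Pbrm1 cKO held an AP-1 motif and a CCAAT box, and the Cnr2 intron 1 CCAAT box.

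In 300 bases around the summit, all 6 promoter regions of the genes were rich in G and C, from 61.3% at Daglb to 79.0% at Mgll, and a GC box was in 4 of them. Napepld had 5 GC boxes in that window, Dagla 3, Mgll 2 and Faah 1. Cnr1 had none there, while the RefSeq promoter of another of its starts in the same open region (chr4:33924014-33924313) held 5. The median GC content of all 21555 regions within 1 kb of a transcription start was 60.0%. AP-1 motifs, which are common in distal open chromatin, were in 9 of the 26 locus regions away from starts (34.6%, against 47.0% of 45124 such regions) and in 2 of the 14 near a start (14.3%, against 14.8%). A GC box was in 8 of those 14 regions (57.1%, against 51.3%) and an ETS motif in 4 (28.6%, against 12.1%). The 14 include promoters of other genes, which are not attributed to the members. Of the own promoters, only that of Daglb held an ETS motif, and 0 held an AP-1 motif. The other ETS matches near a start were at Fuca1, at Abtb1 and Podxl2, and at Armc10 and Fbxl13. The CArG box was in 1 of the 40, at the noncoding start Gm43937 within Mgll (2.50%, against 1.70% of all regions).

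The 40 regions were mostly regions found in both genotypes. The list of reproducible peaks of each genotype shared 32 of them (80%, against 69.2% of all regions), 4 were in the WT list only (10.0%, against 13.4%) and 4 in the Pbrm1 cKO list only (10.0%, against 17.4%). Each genotype had 1 such list, so these shares have no replicate error. By place, 15 lay in an intron of the gene, 6 at its own promoter, 3 in an exon, 5 in flanking intergenic sequence, 3 in another gene, 6 at the promoter of another coding gene and 2 at that of a noncoding gene. The promoters of other coding genes were those of Fuca1 beside Cnr2 (2 regions), Abtb1 and Podxl2 beside Mgll, Armc10 and Fbxl13 beside Napepld, Myrf beside Dagla and Rac1 beside Daglb, and they are not attributed to the 7 genes. Density ran from 1.56 regions per 100 kb at Cnr1 to 14.1 at Dagla. At 39 of the 40 regions every library had a peak, against 93.5% of all regions.

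The promoters differed widely in openness. Napepld stood at the top, with ranks of 1748.5, 1330 and 441 in WT libraries 1, 2 and 3 and of 441, 317 and 218 in Pbrm1 cKO libraries 1, 2 and 3. Only 3.91% of the 13752 coding genes with an open promoter had a better mean rank. The summit held 94 to 125 tags in WT and 162 to 172 tags in Pbrm1 cKO libraries. Tags are not scaled for depth, and the median at the locus regions was 28, 24 and 16 in WT and 32, 28 and 29 in Pbrm1 cKO libraries. Pbrm1 cKO libraries ranked better on average, and WT library 3 and Pbrm1 cKO library 1 met at the same rank.

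The Daglb promoter came next, with ranks of 6594.5, 5932 and 5578 in WT and 8627.5, 6978 and 8829 in Pbrm1 cKO libraries. It was near the middle of the 13752 coding genes with an open promoter, of which 45.7% ranked better. The WT libraries all stood above the Pbrm1 cKO libraries.

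The Faah promoter ranked 22981, 11284 and 14547 in WT and 24797.5, 15832.5 and 21380 in Pbrm1 cKO libraries. Of coding genes with an open promoter, 73.7% ranked better. The Cnr1 promoter ranked 24168.5, 33500 and 21382.5 in WT and 21376.5, 16004.5 and 16568 in Pbrm1 cKO libraries, with 77.8% ranking better. WT library 3 and Pbrm1 cKO library 1 were 6 ranks apart at Cnr1, which is the whole gap between the genotypes there, while the Faah values overlapped.

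The Dagla promoter, listed as reproducible in Pbrm1 cKO only, ranked 26683.5, 50398 and 14991 in WT and 30904, 14794 and 33227 in Pbrm1 cKO libraries. WT library 2 stood alone at the weak end, while WT library 3 and Pbrm1 cKO library 2 lay close together at the strong end. The Mgll promoter ranked 17807.5, 28739.5 and 19572.5 in WT and 39202, 51718.5 and 46003 in Pbrm1 cKO libraries, and every Pbrm1 cKO library stood below every WT library. Of coding genes with an open promoter, 83.7% ranked better than Dagla and 87.3% better than Mgll.

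Cnr2 had no open region at its own promoter. None of the 6 libraries had a peak within 1 kb of either of its 2 annotated starts, not even in the relaxed lists. This shows only that the starts were under the threshold of each list. Of 21924 coding genes, 62.7% had an open promoter.

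In order of mean rank the promoters ran Napepld (749), Daglb (7089.8), Faah (18470.3), Cnr1 (22167), Dagla (28499.6) and Mgll (33841). Napepld ranked before Daglb and Daglb before Faah in 6 of 6 libraries, and the ranges of these pairs did not overlap. From Faah to Mgll each neighbor overlapped the next, and the order of each pair held in 4 of 6 libraries. Within WT the mean ranks of these 4 ran Faah (16271), Mgll (22040), Cnr1 (26350) and Dagla (30691), and the ranges of neighbors overlapped. Within Pbrm1 cKO they ran Cnr1 (17983), Faah (20670), Dagla (26308) and Mgll (45641). There Cnr1, Faah and Dagla overlapped, and the range of Mgll lay wholly beyond the other 3.

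**Figure D1:**
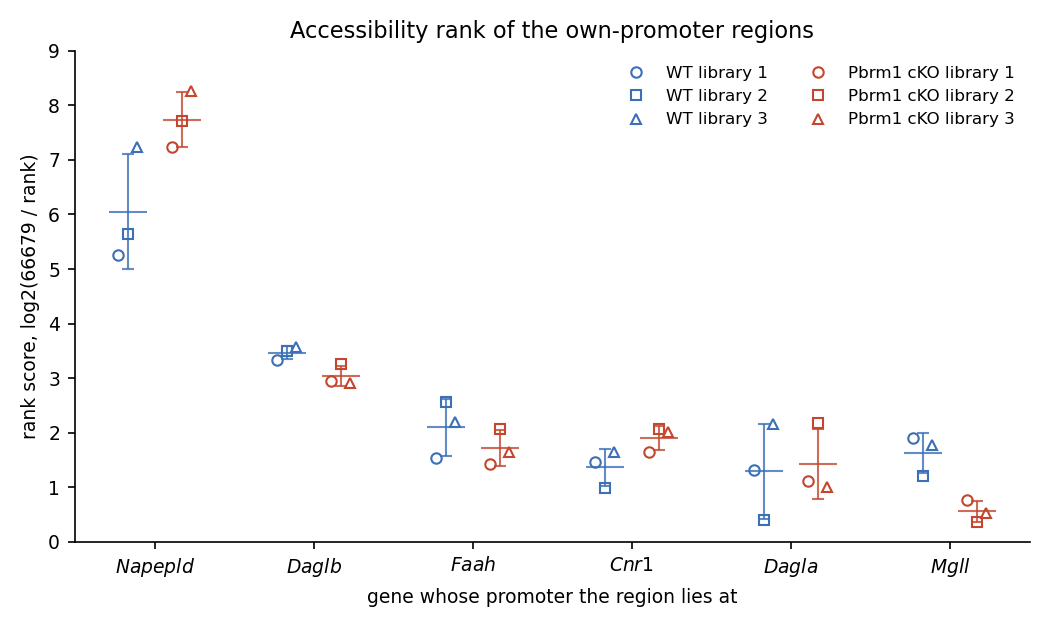
Rank score, log2(66679/rank), of the region at the own promoter of each gene, with a point for each of the 3 WT and 3 Pbrm1 cKO libraries. The horizontal dashes are means and the bars SD (n = 3). Napepld lies highest in both genotypes, and at Mgll the Pbrm1 cKO points all lie below the WT points.

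**Figure D2:**
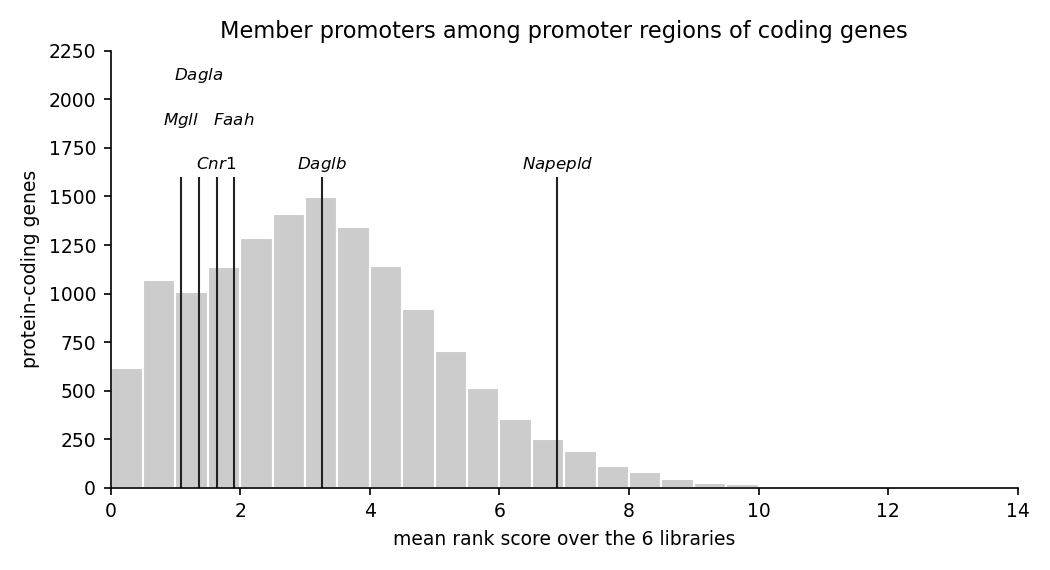
Number of protein-coding genes by the mean rank score of their promoter region over the 6 libraries (13752 genes, bins of 0.5). Vertical lines mark the 6 genes with a promoter region. Napepld lies in the upper tail, Daglb near the middle, and Faah, Cnr1, Dagla and Mgll in the lower part.

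Next, the ranks were compared between genotypes across all 66679 regions with limma. None of the 40 regions passed an adjusted p of 0.05, with 0 higher in Pbrm1 cKO cells, where 26 of all regions (0.039%) were called, and 0 lower, where 20 of all regions (0.03%) were called. At an unadjusted p under 0.05, 1 of the 40 was higher (2.50%, against 7.6% of all regions) and 4 were lower (10.0%, against 8.3%). With normal scores of the ranks in place of log2 ranks, 0 were higher (against 0.993%) and 1 was lower (2.50%, against 1.33%). For these scores, regions without a peak in a library shared their mean rank instead of taking the last rank. Of the 40 regions, 7 had every Pbrm1 cKO library above every WT library (17.5%, against 10.6%) and 5 had the converse (12.5%, against 10.8%). The regions were split evenly, 20 higher and 20 lower. Their median difference was 0.03, against 0.00 for all regions, and their median absolute difference was 0.36, against 0.26. The median of their mean ranks was 28145. Log2 ranks compress the low end of the ranking, so absolute differences also depend on rank. They were not compared at equal ranks.

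**Figure D3:**
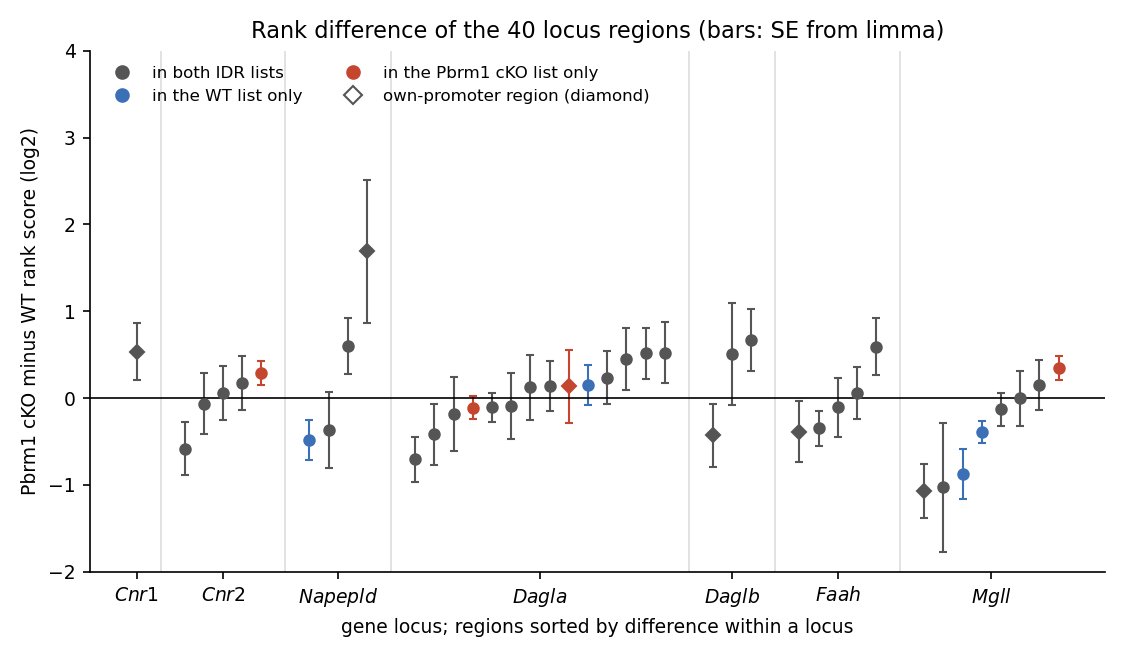
Difference in rank score (Pbrm1 cKO minus WT, log2) of each of the 40 regions, grouped by gene and sorted within it, with bars for the SE of the limma fit. Diamonds are own-promoter regions, and colors give the reproducible list that holds the region. Regions lie on both sides of 0 at every locus with more than 1 region, from −1.07 at the Mgll promoter to 1.69 at the Napepld promoter.

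Of the receptor genes, Cnr1 carried a single region. It lay at the promoter of the gene (chr4:33924069-33925084, gene body chr4:33924593-33948831, plus strand), and no other reproducible region fell in its window of 64.2 kb. Its rank score averaged 1.37 ± 0.33 in WT and 1.90 ± 0.23 in Pbrm1 cKO libraries (mean ± SD, n = 3 per genotype), a difference of 0.54 (SE 0.33, limma adjusted p = 0.441), or 0.35 without WT library 2. The fold enrichment at the summit was 9.85, 7.94 and 7.34 in WT libraries 1 to 3 and 10.2, 11.2 and 10.7 in Pbrm1 cKO libraries 1 to 3. All Pbrm1 cKO values thus lay above all WT values on both scales, without passing the threshold. In rank, WT library 3 (21382.5) and Pbrm1 cKO library 1 (21376.5) nearly met. Ranked by fold instead of p, the difference was 0.22 (limma adjusted p = 0.835).

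The Cnr2 locus (gene body chr4:135895394-135920207, plus strand) held 5 regions, of which 2 were intergenic, 1 intronic and 2 at the Fuca1 promoter past its end. The intergenic region at −5.32 kb from the Cnr2 start ranked 25442, 23384 and 24116 in WT and 23995, 20355.5 and 20498 in Pbrm1 cKO libraries, a difference of 0.17 (SE 0.31, limma adjusted p = 0.839). The intronic region shown above lies 3.17 kb past the start and was listed in Pbrm1 cKO only. It ranked 59853, 59500 and 59996.5 in WT and 51285.5, 44181 and 51795 in Pbrm1 cKO libraries. Every library had a peak there, with 6 to 12 tags in WT and 14 to 16 in Pbrm1 cKO libraries, and the groups did not overlap. The difference was 0.29 (SE 0.14, limma adjusted p = 0.324). It is a weak region in both genotypes.

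Of the enzymes that make endocannabinoids, Napepld (gene body chr5:21662901-21701396, minus strand) had 4 regions. The promoter region (chr5:21701072-21702094) scored 6.05 ± 1.05 in WT and 7.74 ± 0.51 in Pbrm1 cKO libraries (mean ± SD, n = 3 per genotype), a difference of 1.69 (SE 0.82, limma adjusted p = 0.325), the highest of the 40 regions. Ranked by fold instead of p, the difference was 0.18 (limma adjusted p = 0.928). Ranked by p with a library left out, it was lowest at 1.29 without WT library 1 (limma adjusted p = 0.583). The highest was 2.29, without WT library 3 (limma adjusted p = 0.182). An intronic region (chr5:21673295-21673657) was listed in WT only. It ranked 42542, 28423.5 and 59996.5 in WT and 65835, 50567 and 59121 in Pbrm1 cKO libraries. WT library 3 fell among the Pbrm1 cKO libraries there, with 6 tags against 18 and 22 in WT libraries 1 and 2. The difference was −0.48 (SE 0.23, limma adjusted p = 0.315), with −0.74 without WT library 3 and −0.20 without WT library 2. Downstream of Napepld, a region within another gene (chr5:21658507-21659087) was higher in every Pbrm1 cKO library, by 0.60 (SE 0.33, limma adjusted p = 0.381).

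Dagla (gene body chr19:10245265-10304877, minus strand) had the most regions, 8 of them within its introns or exons, and differences ran from −0.70 to 0.52. Its promoter region (chr19:10304716-10305122) scored 1.29 ± 0.87 in WT and 1.43 ± 0.65 in Pbrm1 cKO libraries, a difference of 0.14 (SE 0.42, limma adjusted p = 0.914). The WT libraries alone spanned 19 to 35 tags at its summit, and leaving out WT library 2 turned the difference to −0.31, as leaving out Pbrm1 cKO library 2 did to −0.24. The best-ranked region outside promoters was an intronic one 7.68 kb into the gene (chr19:10296845-10297616). It ranked 19136, 5210.5 and 10954.5 in WT and 9197, 13727.5 and 12582.5 in Pbrm1 cKO libraries, a difference of −0.18 (SE 0.42, limma adjusted p = 0.883), which became 0.31 without WT library 2 and −0.63 without WT library 1. Unlike these, an intronic region 31.9 kb into the gene (chr19:10272746-10273129) ranked 36694.5, 30115.5 and 25355 in WT and 49274, 48340.5 and 50802 in Pbrm1 cKO libraries. Its groups did not overlap, and it differed by −0.70 (SE 0.26, limma adjusted p = 0.201). In the other direction, the region at the noncoding start AC132148.1 in Dagla (chr19:10289697-10291074) was higher in every Pbrm1 cKO library, by 0.51 (SE 0.29, limma adjusted p = 0.405). The remaining regions listed in 1 genotype only, in the flank (chr19:10244293-10244469, WT list) and in the 3′ part of the gene (chr19:10247553-10247857, Pbrm1 cKO list), differed by 0.15 and −0.11 with overlapping groups. At the latter, WT library 3 had the same rank (46386.5) and tags (11) as at the neighboring region (chr19:10248156-10248598). Whether the same peak gave both values was not tested.

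Daglb (gene body chr5:143464584-143505942, plus strand) had 3 regions. Its promoter region (chr5:143464109-143465046) scored 3.47 ± 0.12 in WT and 3.04 ± 0.19 in Pbrm1 cKO libraries, a difference of −0.43 (SE 0.36, limma adjusted p = 0.605). A region over an exon 10.8 kb into the gene (chr5:143475095-143475923) went the other way. It ranked 12004.5, 10711.5 and 10551 in WT and 5827, 9531 and 6103 in Pbrm1 cKO libraries, a difference of 0.67 (SE 0.36, limma adjusted p = 0.376). The groups did not overlap at either region, and neither passed the threshold.

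Of the enzymes that break endocannabinoids down, Faah (gene body chr4:115967145-116017926, minus strand) had 5 regions, all in both lists. The promoter region (chr4:116017249-116018271) scored 2.10 ± 0.52 in WT and 1.71 ± 0.33 in Pbrm1 cKO libraries, a difference of −0.38 (SE 0.35, limma adjusted p = 0.642). It was −0.15 without WT library 2, −0.67 without WT library 1 and −0.24 without Pbrm1 cKO library 1. An intronic region 33.6 kb into the gene (chr4:115984179-115984592) ranked 22165.5, 29630 and 38102.5 in WT and 20367.5, 17849 and 20047 in Pbrm1 cKO libraries. The Pbrm1 cKO libraries all stood higher, by 0.59 on average (SE 0.32, limma adjusted p = 0.385), and WT library 3 was the lowest of the 6.

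Mgll (gene body chr6:88724412-88828360, plus strand) held 4 of the 5 locus regions with an unadjusted p under 0.05 (15.9% of all regions were). The difference was below 0 at 6 of its 8 regions (against 49.9% of all regions), which include an intronic region at −0.00 and the start of Abtb1 and Podxl2 past the end of the gene. The promoter region (chr6:88724333-88725275) scored 1.63 ± 0.37 in WT and 0.56 ± 0.20 in Pbrm1 cKO libraries (mean ± SD, n = 3 per genotype). The difference of −1.07 (SE 0.31) had the lowest limma p of the 40 regions and did not pass adjustment (limma adjusted p = 0.123). It was lower in 3 of 3 Pbrm1 cKO libraries. The fold enrichment was 13.0, 9.53 and 8.37 in WT libraries 1 to 3 and 9.55, 7.14 and 7.17 in Pbrm1 cKO libraries 1 to 3, and the summits held 37, 26 and 21 tags and 22, 14 and 17 tags. On fold, Pbrm1 cKO library 1 thus lay among the WT libraries, and the shallower WT library 3 had fewer tags than Pbrm1 cKO library 1. Over the alternatives tried, the limma adjusted p ran from 0.0569 with normal scores to 0.327 without Pbrm1 cKO library 2. The same start region belongs to Gm26588, a noncoding gene, and accessibility there cannot be told apart between the genes.

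Within the introns of Mgll, neighboring regions differed in direction. The region 47.7 kb into the gene (chr6:88772061-88772334, Pbrm1 cKO list) ranked 62190.5, 64595 and 58881.5 in WT and 46359, 46154.5 and 53737 in Pbrm1 cKO libraries. It was higher in every Pbrm1 cKO library, by 0.35 (SE 0.14, limma adjusted p = 0.226). Some 2 kb further on, the strongest intronic region (chr6:88774074-88774502) ranked 15015, 16547.5 and 16786.5 in WT and 17387, 14416 and 16735.5 in Pbrm1 cKO libraries. Its difference was −0.00 (SE 0.32, limma adjusted p = 0.998).

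The next region, 51.0 kb into the gene (chr6:88775328-88775623, WT list), was the only one of the 40 at which a library had no peak. It ranked 55070.5, 42211.5 and 54648 in WT libraries, 66679 (no peak) in Pbrm1 cKO library 1, and 66087 and 64790 in Pbrm1 cKO libraries 2 and 3. The summits held 21, 24 and 10 tags in WT and 9 and 11 tags in the Pbrm1 cKO libraries that had a peak. The groups did not overlap in rank. The log2 rank difference was −0.39 (SE 0.13, limma adjusted p = 0.161). On normal scores, which do not compress the low end of the ranking, the difference was −1.61 and passed the threshold (limma adjusted p = 0.0186), the only one of the 40 to do so. In that fit Pbrm1 cKO library 1 held the mean rank of all its regions without a peak, not 66679. On that scale it also passed without WT library 3 (limma adjusted p = 0.0138) or Pbrm1 cKO library 3 (0.0191). Leaving out libraries 1 and 2 of WT in turn gave a limma adjusted p of 0.0570 and 0.0724, and leaving out libraries 1 and 2 of Pbrm1 cKO gave 0.156 and 0.0996, all short of the threshold. The repeat share of 46.6% applies to this region, and its part in the ranks was not tested.

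Further into Mgll, a region at the noncoding start Gm43937 (chr6:88787083-88788073, WT list) ranked 17897.5, 44574.5 and 41305.5 in WT and 58214, 62855.5 and 55394.5 in Pbrm1 cKO libraries. It was lower in every Pbrm1 cKO library, with a difference of −0.87 (SE 0.29, limma adjusted p = 0.161). Without WT library 1, whose rank stood well above the other WT libraries, the difference was −0.45. Past the end of the gene, the strong region at the shared start of Abtb1 and Podxl2 (chr6:88841808-88842895) differed by −1.03 (SE 0.74, limma adjusted p = 0.533), with overlapping groups.

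**Figure D4:**
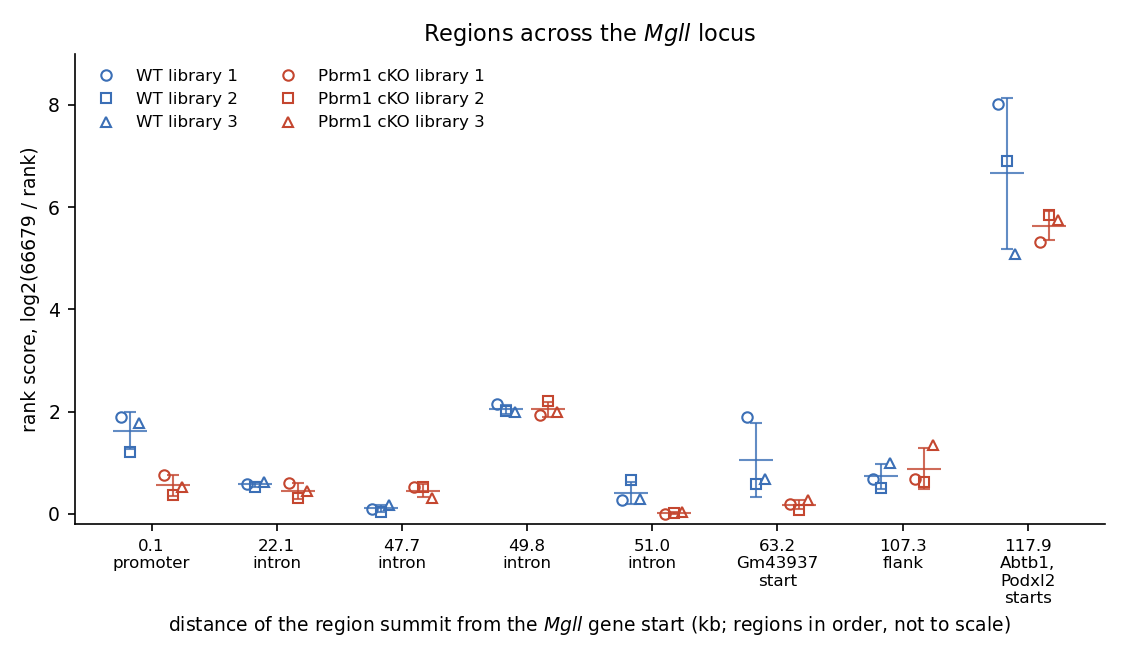
Rank score, log2(66679/rank), of the 8 regions of the Mgll locus in order along the gene, with the distance of each summit from the gene start in kb. Points are the 3 WT and 3 Pbrm1 cKO libraries, dashes means and bars SD (n = 3). The Pbrm1 cKO points lie below the WT points at the promoter and at 51.0 and 63.2 kb, above them at 47.7 kb, and among them at the other 4 regions.

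The relaxed lists of each library also hold weaker peaks at these loci. Counting distinct intervals in the 7 windows gave 123, 117 and 118 in WT and 109, 119 and 124 in Pbrm1 cKO libraries, 119 ± 3.21 and 117 ± 7.64 (mean ± SD, n = 3 each). These counts are not scaled to the whole list, which held 241237 distinct intervals in WT library 3 and 201228 to 209436 in the other libraries. The difference of −2 was within the spread of the libraries (p = 0.9 in a two-sided exact permutation test, where 0.1 is the smallest p possible, and 1 after adjustment over 8 tests). By gene, the p of the same exact permutation test ran from 0.2 at Cnr1 to 1 at Daglb. Cnr1 had 3, 4 and 5 intervals in WT and 3, 2 and 2 in Pbrm1 cKO libraries, with the WT value of 3 met by Pbrm1 cKO library 1. Mgll had 29, 31 and 25 against 26, 26 and 35, and Dagla 29, 27 and 28 against 24, 31 and 26. Between 61 and 76 of the intervals in a library lay outside the reproducible regions, with medians of 6 to 10 tags, against medians of 16 to 32 tags at the regions.

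To place the 7 genes in their pathway, the promoters of 20 further endocannabinoid genes were examined. Of these, 15 had an open region at their promoter, 9 higher and 6 lower in Pbrm1 cKO libraries, with a median difference of 0.03, against −0.02 over the promoters of all coding genes. None passed the threshold in either direction (limma, smallest adjusted p = 0.152), 2 of the 15 had an unadjusted p under 0.05 (against 9.01% of the promoters of all coding genes and 15.9% of all regions), and 0 passed with normal scores. In the list of further synthesis genes, 6 of 7 had an open promoter (Gdpd3 had none), with 5 higher and 1 lower. The lower one was Pla2g4e, an N-acyltransferase that makes precursors of anandamide. Its region, of the WT list and shared with a start of Gm13997, differed by −0.66 (SE 0.21, limma adjusted p = 0.152). Ptpn22, a phosphatase at a region of the Pbrm1 cKO list, differed by 0.60 (SE 0.19, limma adjusted p = 0.153). Both were weak regions, with mean ranks of 50309 and 47609.

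Among the other enzymes of breakdown and oxidation, all 4 had an open promoter. Abhd12, a hydrolase of 2-arachidonoylglycerol, ranked best (mean rank 1625) at a start shared with Gins1 and differed by −0.90 (SE 0.74, limma adjusted p = 0.594). Naaa, an acid amidase for N-acylethanolamines, differed by 0.49 (SE 0.37, limma adjusted p = 0.556). Of 6 other receptors, only the nuclear receptors Ppara (difference −0.04, SE 0.43, limma adjusted p = 0.979) and Pparg (0.00, SE 0.23, limma adjusted p = 0.995) had an open promoter. Gpr55, Gpr18, Gpr119 and Trpv1 had none. All 3 binding partners had one, among them Cnrip1, which binds the tail of CB1 (−0.41, SE 0.31, limma adjusted p = 0.549, at a start shared with Plek), and Fabp7, a fatty acid binding protein (−0.44, SE 0.29, limma adjusted p = 0.483).

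Finally, the coding gene whose promoter ranks were most like those of each member was found by the Euclidean distance of the rank scores over the 6 libraries. The nearest were Zfp275 to Cnr1 (distance 0.138), Mgll and Ripk3 (0.274), Daglb and Rpusd3 (0.296), Faah and Mamld1 (0.455), Dagla and Slc39a8 (0.620), and Napepld and Chd1l (0.770). These distances describe 6 libraries, with no test.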

How the data were processed

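ATAC-seq peak lists of 6 libraries were analyzed. Per the study's methods and the submitters' processing notes, reads went through the ENCODE ATAC-seq pipeline (cutadapt, Bowtie2, MACS2) on GRCm38. Those methods are written for uterine cells and were taken to hold here. For each library the authors deposited a relaxed list (p of 0.01, at most 300000 entries), and for each genotype 1 conservative list at an irreproducible discovery rate (IDR) of 0.05. The deposited columns used are fold (a ratio over local background) and −log10 p, with the rescaled score column for a stricter IDR. Read counts, which the authors tested with DESeq2, were not used here.

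The 2 IDR lists were merged into 66679 regions. Ranks were fitted with limma 3.58.1 in R 4.3.3 (lmFit, eBayes with trend), with Benjamini-Hochberg adjustment over all regions and a threshold of 0.05. The fit was also run on simulated data, where only regions above the median signal were changed and every library had a value. That run does not cover weak regions such as some of those here. Tags per summit were derived from fold and p, and for 100% of entries a whole number of tags gave the deposited −log10 p within 0.01. Total reads are unknown. Genes were from GENCODE M21, and a promoter lay within 1 kb of a start. Named were each gene's promoter region and best other region, the regions with the lowest p (3 in each direction), up to 6 listed in 1 genotype, and in wider lists the 2 genes with the lowest p. The members and lists were chosen with earlier results of these data known. Additional regions whose groups did not overlap were named after their values were seen, as were normal scores without each library.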

Additional observations from a re-analysis of the deposited data

How the results depend on the processing

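No region of the 7 loci passed the threshold on log2 ranks under any of the alternatives tried: ranks by fold, regions with a peak in all 6 libraries, the better-ranked regions alone, a replicate block, each library left out, and flanks of 0 or 50 kb. With normal scores 1 region was lower, the Mgll intron starting at 88775328, and also 1 with normal scores and a replicate block. With normal scores and a library left out the number ran from 0 to 1. Its difference there was −1.61, and −1.83 to −1.41 with a library left out, a choice made after seeing the data. Over all regions, calls moved from 26 higher and 20 lower to 662 and 890 with normal scores and 6 and 1 with ranks by fold. They were 66 and 64 with a replicate block, and 40 and 24 among the better-ranked regions. Among regions with a peak in every library they were 21 and 10. With a library left out, calls ran from 2 to 6 higher and from 0 to 19 lower.

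The median difference of the 40 regions ran from −0.0603 to 0.0673 with a library left out, negative without Pbrm1 cKO library 2 (−0.0603) or 3 (−0.0410), and was −0.00276 with a flank of 50 kb, so it has no stable sign. Leaving out a library also turned the sign at the Dagla promoter (−0.31 to 0.57), the best other Dagla region (−0.63 to 0.31), the Dagla region starting at 10247553 (−0.19 to 0.0307, positive without WT library 3) and the best Mgll intron (−0.0837 to 0.0515), which was 0.24 with ranks by fold. A flank of 0 kb left 26 regions and one of 50 kb gave 65, with 8 in the Pbrm1 cKO list only. The difference in distinct intervals was 0.333 among the 100000 best-ranked intervals and −5.33 to 2.17 with a library left out, positive without Pbrm1 cKO library 1 (2.17). The causes were not tested.

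Replicate numbers did not pair the libraries (correlations of deviations −0.00, −0.05 and 0.01), and with a replicate block the locus counts were 0 higher and 0 lower and the interval difference −2. Of 295 alternative values, 252 kept their direction and side of the threshold or stayed within the spread. Depth limits weak regions most, since 6 to 16 tags lie behind some, and a region without a peak is not shown to be closed.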
